A study of Mus musculus with 6 samples.

Results

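The genes that copy DNA and supply its building blocks were examined in RAW264.7, a dividing macrophage-like mouse cell line, of which 2 stable derivatives were compared. The set holds 40 genes chosen by symbol for their known roles in DNA replication and nucleotide supply, with earlier results of these data known. All 40 were found among 23154 gene identifiers measured and passed the filter on low values. One line carried the construct pINDUCER20b-HA-NUR77, which makes NUR77 with an HA tag when doxycycline is present; NUR77 is the nuclear receptor that Nr4a1 encodes. The other carried pINDUCER20b-GFP, which makes green fluorescent protein, as control. Both lines received 1 µg/mL doxycycline for 18 hours, starting 24 hours after seeding, and each of the 3 replicates per line was a separate dish. Levels are normalized reads (scaled to 10000000 gene reads in every library), and depth ranged from 11199468 to 15929487 reads per library.

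Each group was 1 stable line, so differences between the lines as such and effects of the transgene cannot be told apart, and the tests measure the spread between dishes. No library without doxycycline was analysed here. In bulk RNA, more cells in S phase and more RNA per cell cannot be told apart either. Nr4a1 was measured at 170, 148 and 161 normalized reads with GFP and 288, 314 and 297 with NUR77, and the reads of transgene and endogenous gene are not separated. All 9 macrophage markers examined were detected. Of these, 5 fell (Csf1r, Cd68, Mpeg1, Lyz2 and Adgre1), 2 rose (Itgam and Fcgr1) and Spi1 and Ptprc were not called. Their summed level was between 72620 and 73850 normalized reads with GFP and between 27540 and 28800 with NUR77. Of 8 lymphocyte, 6 fibroblast and 5 epithelial markers, 5, 1 and 3 had no read in any library. The 12 skeletal muscle markers summed to between 386.7 and 439.7 with GFP and between 113.6 and 326.8 with NUR77, and the fibroblast markers to between 17.65 and 22.3 and between 29.44 and 113.4, with NUR77 replicate 1 the highest NUR77 library in both. The part of these markers in the results was not tested. With GFP, most of the muscle sum was Tnni2, which fell from 385, 336 and 372 normalized reads with GFP to 96.4, 58.5 and 71.6 with NUR77 (log2 fold change -2.28, limma adjusted p = 1.7e-08). The other 3 tested muscle markers, Acta1, Mylpf and Myl1, were not called and stood at 51.8, 63.4 and 37.5 in NUR77 replicate 1 and at no more than 18.8 in any other library. Without that replicate, 25 replication genes were called higher and 3 lower, against 25 and 4 with it.

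Replication begins when the origin recognition complex, with CDC6 and CDT1, loads the ring-shaped MCM2-7 helicase onto DNA in G1 phase. The kinase CDC7, CDC45, the GINS complex and MCM10 then turn loaded rings into active helicases. Polymerase alpha with primase starts each strand, polymerases epsilon and delta extend it on the sliding clamp PCNA, and FEN1 and DNA ligase 1 join the fragments of the lagging strand. Many of these genes are textbook targets of the E2F transcription factors, which the retinoblastoma protein holds in check until late G1.

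The E2F motif was looked for in promoters, because it is the sequence through which this gene class is known to be regulated together. The motif was searched as TTTCCCGC or TTTGGCGC, on both strands, in RefSeq windows (GRCm38.p6) from 250 bases before to 50 bases after a start site. Windows were found for 33 of the 40 genes; Gins1, Gins2, Gins4, Mcm4, Pole, Prim2 and Rfc2 had no entry. A match was present in 11 of 33 genes (33.3%), against 3.8% of 8790 tested genes with a window and 1.8% of all 27025 genes of the table. A stretch of 30 bases around the first match of each of the 11 genes is printed on the gene's own strand, with the matched letters in capitals. A match written GCGGGAAA or GCGCCAAA is the motif read on the opposite strand.
Mcm3 (chr1:20820275-20820304, minus strand): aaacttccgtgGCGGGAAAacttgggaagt
Mcm5 (chr8:75109349-75109378, plus strand): caagaactttcGCGCCAAAacgtccagcct
Mcm6 (chr1:128359797-128359826, minus strand): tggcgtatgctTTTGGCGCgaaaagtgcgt
Mcm7 (chr5:138172030-138172059, minus strand): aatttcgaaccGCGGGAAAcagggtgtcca
Cdc6 (chr11:98908002-98908031, plus strand): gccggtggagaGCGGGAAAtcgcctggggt
Cdt1 (chr8:122568035-122568064, plus strand): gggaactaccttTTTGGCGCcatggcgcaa
Gins3 (chr8:95633507-95633536, plus strand): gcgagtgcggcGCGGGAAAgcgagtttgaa
Rfc3 (chr5:151651190-151651219, minus strand): ctttcgcgctcGCGGGAAAactctactgtc
Pola1 (chrX:93632275-93632304, minus strand): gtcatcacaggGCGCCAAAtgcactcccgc
Pold1 (chr7:44548766-44548795, minus strand): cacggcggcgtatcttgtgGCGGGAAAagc
E2f2 (chr4:136172294-136172323, plus strand): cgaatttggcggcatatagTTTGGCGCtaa
Mcm3 and Mcm6 had 2 matches each within their windows and the other 9 genes had 1. The matches began between 165 bases before the start site, in Mcm7, and 40 bases after it, in E2f2 and Pold1.

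Matches were found in genes with every outcome. Of the 20 genes called higher in the NUR77 line that had a window, 7 held the motif (35%), as did 1 of the 4 called lower, Gins3, and 3 of the 9 not called, Mcm3, Cdt1 and Pola1. Over all tested genes with a window the shares were 3.92% of those called higher, 3.39% of those called lower and 4.01% of those not called. CCAAT, a frequent promoter element, was present in 21 of the 33 genes (63.6%) and in 43.7% of tested genes. TTTGAA, the core of the CHR element of late cell cycle genes, was present in 6 (18.2%) against 14.5%. AAAGGTCA, the site bound by NR4A receptors as single molecules, had no match in the 33 windows, against 1.11% of tested genes. A match in such a window is a description of letters and not a measured binding site.

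Across the 40 genes, 25 were higher and 4 lower in the NUR77 line at a limma adjusted p below 0.05, and 11 were not called. Among all 11201 tested genes, 66.7% were called in either direction, 38.4% higher and 28.3% lower, against 62.5% and 10% of the 40. The median log2 fold change was 0.31 for the 40 genes and 0.06 for all tested genes. None of the 40 genes reached a change of 2-fold, against 1557 of all 11201 tested genes. The range ran from -0.47 for Pcna to 0.87 for Orc1. NUR77 values lay wholly above the GFP values in 25 of the 40 genes (62.5%) and wholly below in 4 (10%), which were the 29 called genes. Over all tested genes, NUR77 lay wholly above in 40.3% and wholly below in 30.3%. Together the 40 genes took 0.3165%, 0.363% and 0.348% of the reads in the GFP libraries and 0.4237%, 0.4364% and 0.3938% in the NUR77 libraries. Under TMM scaling, which moved the median of all tested genes by -0.07, 24 replication genes were called higher and 5 lower, against 32.2% and 34.2% of all tested genes.

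**Figure D1:**
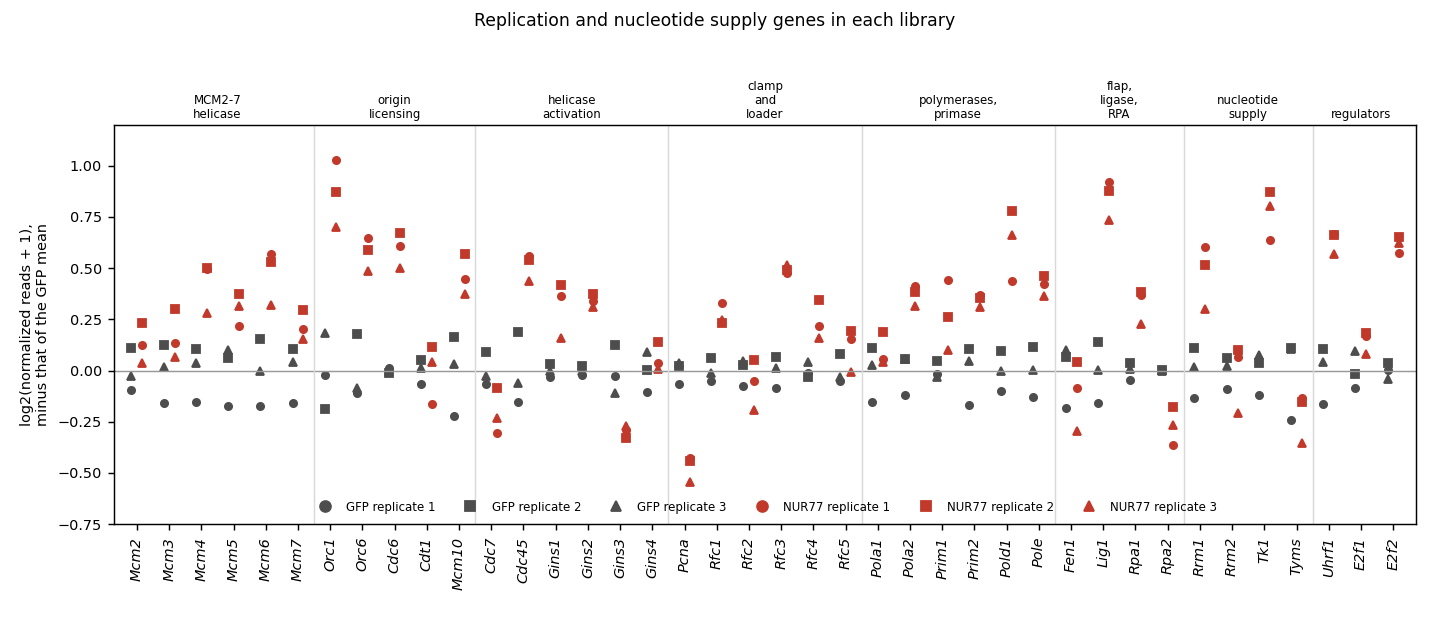
Level of each of the 40 genes in each library, as log2(normalized reads + 1) minus that of the GFP mean (vertical axis), with genes along the horizontal axis by role. Grey symbols are GFP libraries, red symbols NUR77 libraries, and the shape gives the replicate; red symbols lie above grey ones without overlap for 25 genes and below for 4.

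The libraries of a line shared an order over many of these genes. GFP replicate 1 was the lowest GFP library for 33 of the 40, against 36.2% of all tested genes. NUR77 replicate 3 was the lowest NUR77 library for 30 of the 40, against 30.7%. Within a line, values of the 40 genes thus shared a library order and are not separate observations. Leaving out GFP replicate 1 gave 24 higher and 5 lower, and leaving out NUR77 replicate 3 gave 28 higher and 3 lower.

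In the MCM2-7 helicase, the ring that unwinds DNA, 4 of 6 subunit genes rose (66.7%, against 38.4% of all tested genes). None fell, against 28.3% of all tested genes, and 2 were not called. Mcm6 was measured at 1600, 2006 and 1797 normalized reads with GFP and at 2672, 2599 and 2252 with NUR77, 1.39-fold higher (log2 fold change 0.48, SE 0.08, limma adjusted p = 0.00024). Mcm4 stood at 1127, 1348 and 1286 against 1769, 1775 and 1525, 1.35-fold higher (limma adjusted p = 8.0e-05). For both genes every NUR77 library lay above every GFP library, but the gap was smaller than the range within either line. The lowest NUR77 value was replicate 3 in each case. Mcm5 was at 1546, 1820 and 1872 against 2029, 2262 and 2172 (log2 fold change 0.31, limma adjusted p = 0.00082). Mcm7 was at 1397, 1677 and 1603 against 1793, 1916 and 1734 (0.22, limma adjusted p = 0.0067). The groups of Mcm7 were narrowly apart, and its call was lost under TMM scaling (limma adjusted p = 0.058), without the variance trend (0.053) and without GFP replicate 1 (0.053). Mcm7 shares 321 exon bases with Ap4m1 and 64 with Cops6 on the opposite strand; Ap4m1 rose by 0.37 on the log2 scale.

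Mcm2 and Mcm3 had overlapping groups. Their log2 fold changes were 0.14 (95% interval 0.00 to 0.27, limma adjusted p = 0.067) and 0.17 (0.01 to 0.33, limma adjusted p = 0.051). Both were called higher without GFP replicate 2 (limma adjusted p = 0.016 for Mcm2 and 0.01 for Mcm3) and without NUR77 replicate 3 (0.021 and 0.018), and Mcm3 also with no filter on low values (0.04) and with voom on recovered reads (0.0496). Per kilobase of merged exons, a scale on which subunits of 1 ring can be set side by side, the GFP means were 483 for Mcm3, 437 for Mcm5, 386 for Mcm6, 352 for Mcm7, 349 for Mcm4 and 235 for Mcm2. In the NUR77 line they were 544, 539, 538, 410, 471 and 258 in the same order. The level of Mcm2 was the lowest of the 6 in both lines; its merged exons, 6956 bases long, were the longest of the 6, and length differences between transcripts of a gene enter these values.

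Licensing genes, which bring the helicase to origins, had a median log2 fold change of 0.58, against 0.06 for all tested genes. Of these 5 genes, 4 were higher (80%, against 38.4% of all tested genes) and none lower (against 28.3%). This list counts Mcm10, which acts at the next step. Orc1, the largest subunit of the origin recognition complex (chromosome 4, 108579423 to 108614833, plus strand), was at 153, 136 and 176 normalized reads with GFP and at 316, 284 and 252 with NUR77. The means were 155 ± 20.2 and 284 ± 31.9 (SD, n = 3 dishes per line), a rise of 1.83-fold with a limma adjusted p of 1.6e-06. It was the largest rise among the 40 genes. Cdc6, the ATPase that joins the complex before loading, was at 268, 263 and 264 against 404, 422 and 376, 1.51-fold higher (limma adjusted p = 1.3e-06). Orc6, the smallest subunit, was at 258, 315 and 262 against 437, 419 and 391, 1.5-fold higher (limma adjusted p = 9.9e-06). For all 3 genes every NUR77 library lay above every GFP library. Orc6 shares 171 exon bases with Vps35 on the opposite strand, which fell by 0.21 on the log2 scale; Orc1 shares 376 with Gm12743, at 14.2 and 5.4 normalized reads.

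Cdt1, the loading partner of CDC6, was at 962, 1042 and 1017 with GFP and 900, 1089 and 1037 in the NUR77 line. Its groups overlapped, with a log2 fold change of -0.00 (95% interval -0.14 to 0.14). The inhibitor of CDT1, Gmnn, was not among the 40 but on a list of further replication genes, and it rose by 0.50 on the log2 scale (limma adjusted p = 1.0e-05). Mcm10, which helps to activate loaded rings, was at 456, 596 and 544 against 725, 791 and 691 (log2 fold change 0.47, limma adjusted p = 0.0002).

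Of the 6 other genes of helicase activation, 3 were higher (50%), 2 lower (33.3%) and 1 was not called, shares near the 38.4% and 28.3% of all tested genes. Cdc45, which completes the active helicase, was at 453, 574 and 483 normalized reads with GFP and at 742, 731 and 683 with NUR77, 1.43-fold higher (limma adjusted p = 1.7e-05). The 4 GINS genes encode 1 complex with 1 copy of each subunit, and they did not move together. Gins2 was at 197, 203 and 199 against 253, 259 and 247 (log2 fold change 0.34, limma adjusted p = 0.00086), and Gins1 at 163, 171 and 167 against 215, 223 and 186 (0.31, limma adjusted p = 0.0061). Gins3 was at 195, 217 and 184 against 163, 158 and 165, lower in every NUR77 library (log2 fold change -0.29, SE 0.09, limma adjusted p = 0.0087). Gins4 overlapped between lines, at 0.06 (95% interval -0.09 to 0.22).

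The call of Gins3 was lost without GFP replicate 2 (limma adjusted p = 0.054). Gins2 shares 2758 of its 4097 exon bases with Gse1 on the opposite strand, a gene at 846 and 861 normalized reads in the 2 lines, so its level is uncertain where strand was not used in counting. Cdc7, the kinase that fires origins, was at 318, 355 and 327 against 270, 315 and 284, a fall of 0.20 on the log2 scale (limma adjusted p = 0.029). Its groups were separated by a small gap, and the call was lost without the variance trend (limma adjusted p = 0.053) and without GFP replicate 2 (0.12), GFP replicate 3 (0.06), NUR77 replicate 1 (0.1) or NUR77 replicate 3 (0.066). Dbf4, the regulatory partner without which the CDC7 kinase is inactive, rose by 0.16 (limma adjusted p = 0.015), a call lost in 5 of 16 alternatives, TMM scaling among them.

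Of 6 clamp and loader genes, 3 were higher (50%, against 38.4% of all tested genes), 1 lower (16.7%, against 28.3%) and 2 not called. The lower gene was Pcna, and the 3 higher genes encode loader subunits. Pcna, the sliding clamp (chromosome 2, 132249162 to 132253314, minus strand), was at 1928, 2048 and 2068 normalized reads with GFP and at 1500, 1485 and 1380 with NUR77. The means were 2015 ± 75.6 and 1455 ± 65.6 (SD, n = 3 dishes per line), 1.38-fold lower (log2 fold change -0.47, SE 0.05, limma adjusted p = 7.0e-07). It was the largest fall of the set, and it was called in every alternative fit. Rfc3, a small subunit of the clamp loader, was at 236, 262 and 252 against 348, 351 and 357, 1.41-fold higher (limma adjusted p = 1.3e-05). Rfc1, the large subunit, was at 1433, 1548 and 1474 against 1867, 1745 and 1765 (log2 fold change 0.27, limma adjusted p = 0.00023), and Rfc4 at 419, 412 and 434 against 491, 536 and 472 (0.24, limma adjusted p = 0.004). None of these 3 overlapped between lines.

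Rfc2 and Rfc5, the remaining loader subunits, overlapped between lines, at -0.06 (95% interval -0.21 to 0.08) and 0.11 (-0.03 to 0.26). Rfc5 was called higher without NUR77 replicate 3 (limma adjusted p = 0.032). Rfc2 shares 952 exon bases with Lat2 on the opposite strand, which fell from 3227 to 956 normalized reads, and Rfc5 shares 499 with Wsb2, which fell from 651 to 390. Rfc4 shares 194 with Eif4a2, which rose from 1727 to 2171. The part of these overlaps in the loader values was not tested. In all, 12 of the 40 genes shared exon bases with a gene on the opposite strand, Cdc45 (209 with Ufd1), Lig1 (247 with Zswim9) and Pole (78 with Gm15792) among them. Per kilobase, Pcna stood at 839 with GFP and 606 with NUR77, above every other member except Rrm2 in the NUR77 line, at 644.

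Of 6 polymerase and primase genes, 5 rose (83.3%, against 38.4% of all tested genes) and none fell (against 28.3%). Pold1, the catalytic subunit of polymerase delta, was at 599, 685 and 639 normalized reads with GFP and at 868, 1102 and 1015 with NUR77, 1.55-fold higher (limma adjusted p = 4.4e-06). Pole, the catalytic subunit of polymerase epsilon, was at 985, 1168 and 1081 against 1446, 1487 and 1388, 1.34-fold higher (limma adjusted p = 1.4e-05). In both genes the lowest NUR77 value exceeded the highest GFP value by more than the range of the GFP line. Pola2, the accessory subunit of polymerase alpha, was at 569, 643 and 644 against 823, 808 and 769 (log2 fold change 0.37), and the primase gene Prim2 at 418, 506 and 486 against 607, 601 and 583 (0.35). Prim1, the catalytic primase subunit, rose by 0.27 (limma adjusted p = 0.0052). Pola1, the catalytic subunit of polymerase alpha, overlapped between lines at 0.10 (95% interval -0.04 to 0.24).

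The accessory subunits of both extending polymerases were on the list of further replication genes. Of polymerase delta, Pold4 (log2 fold change 1.05) and Pold2 (0.70) rose by more than 1.5-fold and Pold3 by 0.17 (limma adjusted p = 0.02), a call also lost in 5 of 16 alternatives. Pold4 lies on chromosome 19 among neighbours that were higher as well, with a median of 0.48 over 24 neighbouring tested genes. Of polymerase epsilon, Pole4 was at 338, 343 and 373 against 250, 217 and 213 (log2 fold change -0.63, limma adjusted p = 3.1e-06), and Pole3 fell by 0.31 (limma adjusted p = 0.00088). These 2 genes encode the histone-fold subunits of the enzyme. Pole2, which encodes its second-largest subunit, was called higher at 0.20 (limma adjusted p = 0.042), a call lost in 8 of 16 alternatives.

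Ligase rose most among the genes of fragment joining and single-strand binding. Lig1, DNA ligase 1 (chromosome 7, 13277283 to 13311433, plus strand), was at 920, 1130 and 1028 normalized reads with GFP and at 1940, 1882 and 1711 with NUR77. The means were 1026 ± 105 and 1844 ± 119 (SD, n = 3 dishes per line), 1.8-fold higher with a limma adjusted p of 2.2e-08. Fen1, the nuclease that trims the flap before ligation, was at 624, 743 and 759 against 669, 730 and 578. Its groups overlapped, at -0.11 (95% interval -0.30 to 0.09), and the difference between its change and that of Lig1 was not tested. Fen1 shares 130 exon bases with Tmem258 on the opposite strand, which fell by 0.39, and 1909 with Gm10143, at 1.51 and 1.23 normalized reads.

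Replication protein A, a trimer that coats single-stranded DNA, had 1 gene higher, 1 lower and 1 not called. This is near the shares of all tested genes, 38.4% higher and 28.3% lower. Rpa1, the large subunit, was at 1516, 1609 and 1572 against 2022, 2043 and 1835 (log2 fold change 0.33, limma adjusted p = 5.3e-05). Rpa2, the middle subunit, was at 438, 439 and 437 against 340, 387 and 364 (-0.27, limma adjusted p = 0.0021). Both pairs of groups were clearly apart, and in opposite directions. Rpa3, the small subunit and not among the 40, was at 0.01 (limma adjusted p = 0.93).

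**Figure D2:**
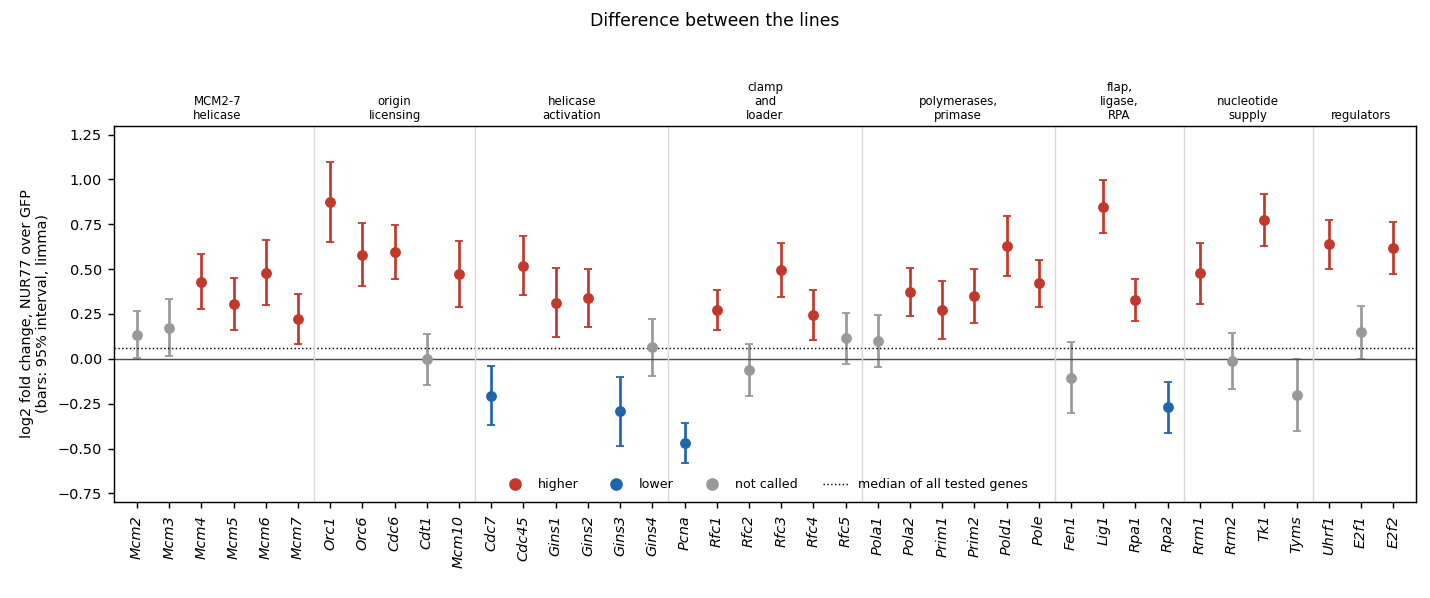
Log2 fold change of NUR77 over GFP for each of the 40 genes (vertical axis), with 95% intervals from limma, ordered by role along the horizontal axis. Red points were higher, blue lower and grey not called; Pcna at -0.47 and Orc1 at 0.87 are the extremes, and the dotted line is the median of all tested genes, 0.06.

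Among the nucleotide supply genes, 2 of 4 rose (50%, against 38.4% of all tested genes) and none fell (against 28.3%). Tk1, the thymidine kinase of S phase (chromosome 11, 117815526 to 117826092, minus strand), was at 580, 647 and 665 normalized reads with GFP and at 982, 1157 and 1100 with NUR77. The means were 631 ± 44.6 and 1080 ± 89.2 (SD, n = 3 dishes per line), 1.71-fold higher with a limma adjusted p of 3.9e-08. Rrm1, the large subunit of ribonucleotide reductase, was at 2303, 2728 and 2558 against 3845, 3611 and 3115, 1.39-fold higher (limma adjusted p = 0.00014). Neither gene overlapped between the lines. Tk1 shares 83 exon bases with Afmid on the opposite strand, at 31.4 and 51.6 normalized reads.

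Rrm2, the small subunit of the reductase used in S phase, was at 1683, 1872 and 1819 against 1877, 1923 and 1551, a log2 fold change of -0.01 (95% interval -0.17 to 0.15). Tyms, thymidylate synthase, was at 305, 389 and 388 against 329, 325 and 282 (-0.20, 95% interval -0.40 to -0.00, limma adjusted p = 0.07). The groups of both genes overlapped. Tyms was called lower with TMM scaling (limma adjusted p = 0.018), with median-of-ratios (0.024) and upper-quartile scaling (0.021), and without GFP replicate 1 (0.0046). Rrm2b, the alternative small subunit known as a p53 target, was on the list of further nucleotide enzymes. It was at 344, 345 and 352 against 704, 687 and 679, 1.99-fold higher (limma adjusted p = 1.9e-10). Per kilobase, Rrm2b remained far below Rrm2, at 38.0 and 75.5 against 646 and 644.

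Uhrf1, which recruits the maintenance DNA methyltransferase to newly copied DNA, was at 1143, 1375 and 1317 normalized reads with GFP and at 2030, 2024 and 1900 with NUR77, 1.56-fold higher (limma adjusted p = 1.8e-07). Dnmt1, the methyltransferase itself, had a log2 fold change of 0.04 (limma adjusted p = 0.47). E2f2, an activating E2F factor, was at 261, 267 and 253 against 388, 410 and 402, 1.53-fold higher (limma adjusted p = 5.3e-07). The spread within each line was small against this difference. E2f1, the other activating factor in the set, was at 341, 358 and 388 against 408, 412 and 383 (log2 fold change 0.15, limma adjusted p = 0.073). Its groups overlapped by a narrow margin, and it was called higher without GFP replicate 3 (limma adjusted p = 0.046). E2f3, the third activator, rose by 0.66.

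Ratios between the genes of a pair do not depend on how libraries are scaled, so they were computed within each library per kilobase of exons. The 9 pairs were chosen after their values were seen and carry no test. The ratio of Rfc3 to Pcna was 0.0812, 0.085 and 0.0811 in the GFP libraries and 0.154, 0.157 and 0.172 in the NUR77 libraries. That of Rpa1 to Rpa2 was 1.86, 1.97 and 1.93 against 3.19, 2.83 and 2.7. In both pairs the lines were far apart. The ratio of Gins2 to Gins3 went from 0.666 ± 0.0489 to 1.04 ± 0.0455, that of Rrm1 to Rrm2 from 0.355 ± 0.0112 to 0.498 ± 0.0224 and that of Pole to Pole4 from 0.691 ± 0.0644 to 1.44 ± 0.123 (SD, n = 3). Such ratios show unequal change within a complex or step, not which partner changed.

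**Figure D3:**
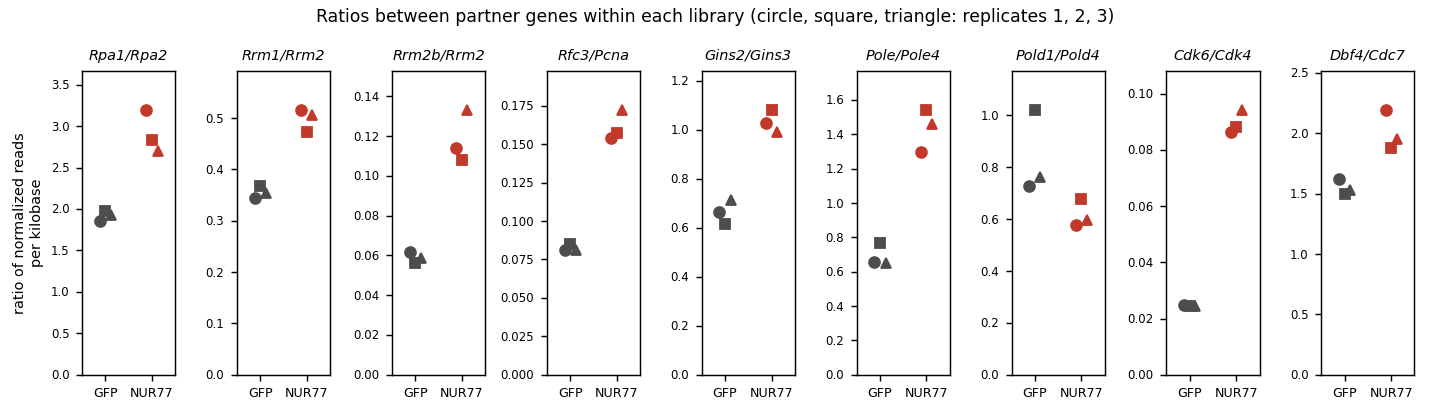
Ratio of normalized reads per kilobase between 9 pairs of partner genes (vertical axes, each starting at 0) in the GFP (grey) and NUR77 (red) libraries, with shapes for replicates. The libraries of the lines do not overlap in any of the 9 pairs, but the pairs were chosen after their values were seen. The lack of overlap is therefore no test. The ratio of Cdk6 to Cdk4 went from 0.0246 to 0.0896.

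The rest of the replication machinery was read from a list of 37 further genes. Of these, 26 were higher, 3 lower (8.11%, against 28.3% of all tested genes) and 8 not called, with a median log2 fold change of 0.26. With TMM scaling, 21 of the list were higher and 4 lower, against 32.2% and 34.2% of all tested genes. Donson, a factor that helps to install the helicase, rose by 0.88, and Supt16, a subunit of the histone chaperone FACT, by 0.72. Mcmbp, which binds MCM proteins, was at 0.12 (limma adjusted p = 0.056), and Chtf8, part of an alternative clamp loader, at -0.07 (0.31; called lower under TMM scaling at -0.14, limma adjusted p = 0.043). Mcm9 was the lower gene beside Pole3 and Pole4, at -0.33. The share called higher, 70.3%, stood beside 62.5% of the 40 genes and 38.4% of all tested genes.

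Of 33 tested genes among 34 further nucleotide enzymes, 22 were higher (66.7%, against 38.4% of all tested genes) and 4 lower (12.1%, against 28.3%), with a median of 0.30. Prps2, which makes the ribose donor of nucleotide synthesis, rose by 1.11; it lies near the end of chromosome X, where the median of 17 neighbours was 0.83. Samhd1, a hydrolase that breaks down deoxynucleotides, was at 1312, 1271 and 1295 normalized reads against 2349, 2417 and 2417, 1.85-fold higher (limma adjusted p = 5.0e-11). Shmt1, a folate enzyme that feeds thymidylate synthesis, rose by 0.85. The 4 lower genes were Tk2 (-0.47) and Dguok (-0.25), the deoxynucleoside kinases of mitochondria, Shmt2 (-0.23), the mitochondrial counterpart of Shmt1, and Impdh1 (-0.18), an enzyme of guanine nucleotide synthesis. The call of Dguok was lost in 5 of 16 alternatives. Cmpk1 and Adss were at -0.03 and 0.01. Nme2 was not tested, with levels between 1.88 and 4.88 normalized reads with GFP and between 2.09 and 3.18 with NUR77.

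The E2F, RB and DREAM group, which switches replication genes on and off, held 16 genes. Of these, 9 were higher (56.2%, against 38.4% of all tested genes) and 1 lower (6.25%, against 28.3%), with a median of 0.19. Under TMM scaling 5 were higher and 3 lower, where 32.2% and 34.2% of all tested genes were; the share higher was then near that of all tested genes. Rb1, the retinoblastoma protein gene that represses E2F targets (chromosome 14, 73183673 to 73325822, minus strand), was at 913, 845 and 903 normalized reads with GFP and at 3059, 2817 and 3035 with NUR77. It was 3.35-fold higher (log2 fold change 1.74, SE 0.05, limma adjusted p = 3.4e-14), a larger change than that of any of the 40 genes. Mybl2, an activator of late cell cycle genes, rose by 0.89 and E2f5, a repressive E2F factor, by 0.65. Rbl1 (0.14, limma adjusted p = 0.06) and Tfdp1 (-0.08, limma adjusted p = 0.24) were not called; Tfdp1 was called lower under TMM (0.03) and upper-quartile scaling (0.04).

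Upstream, among 13 tested G1/S cyclins, kinases and inhibitors, 7 were higher (53.8%, against 38.4% of all tested genes) and 1 lower (7.69%, against 28.3%). Under TMM scaling 7 were higher and 4 lower, the latter near the 34.2% of all tested genes called lower. Cdk6 was at 424, 424 and 413 normalized reads against 953, 1037 and 1023, 2.38-fold higher, and Cdk4, the related kinase, at 3948, 4020 and 3953 against 2559, 2727 and 2524, 1.53-fold lower (limma adjusted p = 5.9e-12 and 7.7e-09). Ccnd2 (log2 fold change 0.87) and Ccne1 (0.81) rose, as did the inhibitor gene Cdkn1b (0.41, limma adjusted p = 0.00073). Ccnd1 was at -0.06 and the inhibitor gene Cdkn1a at -0.10. Ccnd1 and Cdkn1a were called lower under TMM scaling, at -0.13 and -0.17 (limma adjusted p = 0.032 and 0.018). The inhibitor genes Cdkn2a and Cdkn2b had 0 reads in all 6 libraries.

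Of 11 chromatin assembly genes, which package new DNA, 6 were higher (54.5%, against 38.4% of all tested genes) and none lower (against 28.3%). The list median was 0.17, and the largest rises were those of Nasp (0.50), Hells (0.50), Chaf1a (0.48) and Hat1 (0.41). Rbbp4 was at 0.01. Under TMM scaling 4 of this list were called higher and 2 lower, against 32.2% and 34.2% of all tested genes. The share higher was then near that of all tested genes. Of 11 fork checkpoint genes, which guard stalled forks, 7 were higher (63.6%, against 38.4% of all tested genes) and 1 lower (9.09%, against 28.3%), with a median of 0.33. Atr, the checkpoint kinase, rose by 0.43 and its target kinase Chek1 by 0.38, Rad9a by 0.69 and Wee1 fell by 0.35. Rad9a lies on chromosome 19 among neighbours with a median of 0.66. Rad1, partner of RAD9A in the checkpoint clamp, was at 0.15 (limma adjusted p = 0.12) and Etaa1 at -0.04. All 10 mitosis genes were higher (median 0.34), against 38.4% of all tested genes, although Cdc20 (0.19) lost its call under TMM and upper-quartile scaling and without NUR77 replicate 2. Among them were Bub1 (0.74), Ube2c (0.69), Aurka (0.53) and Aurkb (0.53).

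**Figure D4:**
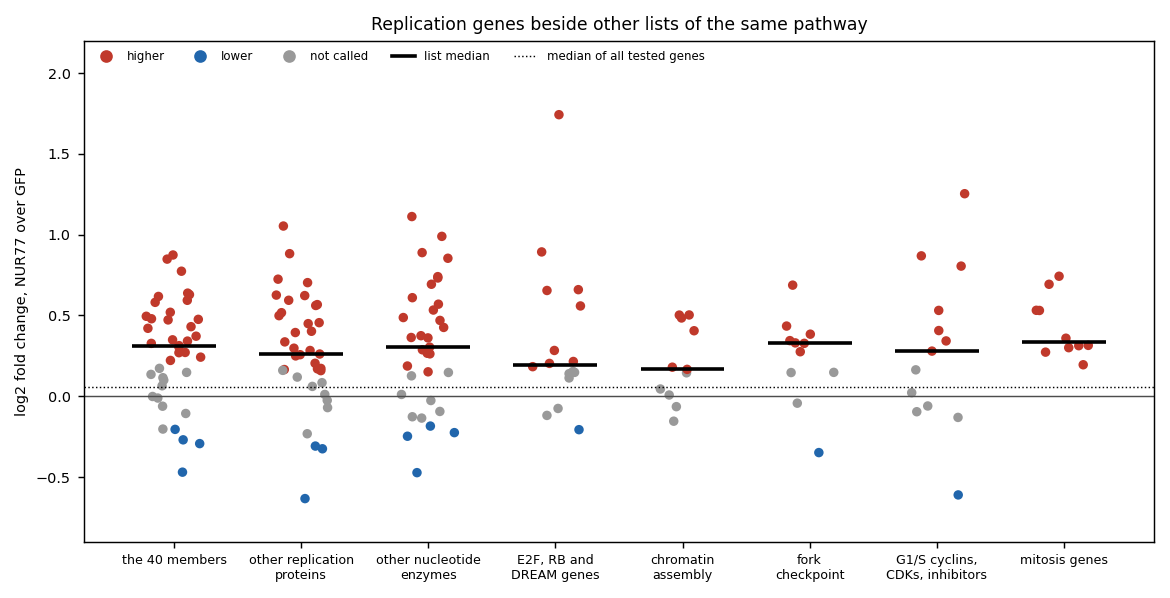
Log2 fold change of NUR77 over GFP (vertical axis) for the 40 genes and 7 further lists, 1 point per tested gene, with colours for higher (red), lower (blue) and not called (grey). Thick bars are list medians, between 0.17 and 0.34, and the dotted line is the median of all tested genes; Rb1 is the highest point, at 1.74.

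The 40 genes lie on 14 chromosomes. The median log2 fold change of the tested genes nearest to each, up to 12 on either side (24 for 38 genes, 23 for Mcm10 and 12 for Rfc3), ranged from -0.20 around Fen1 to 0.32 around Cdc6, with 0.07 in the middle. Orc1, with neighbours at -0.04, and Tk1, with neighbours at -0.17, rose among neighbours whose medians were below 0. Other genes called higher lay among neighbours that were mostly higher or not called. Cdc6, at 0.59, lay among neighbours of which 15 of 24 were higher and 4 lower. Lig1, at 0.85, had neighbours at 0.22, with 12 of 24 higher and 2 lower. Rfc4, at 0.24, had neighbours at 0.26, with 13 of 24 higher and 3 lower. The part of location in these changes was not tested.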

How the data were processed

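Poly(A) RNA from 6 dishes was sequenced in strand-specific libraries, per the labels' protocols. The authors deposited log2 values per gene and library; from the values, each is the log2 of reads per 10000000 plus 1. TopHat2 2.1, HTSeq and DESeq2 with mm10 are named in the submitters' processing notes; their roles are not stated there, and neither the annotation nor the strand setting is given in the sources used here. Whole reads were recovered for 100% of values (tolerance 0.1 read). Names, coordinates and exon lengths came from GENCODE for GRCm38. Titles set the groups.

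Lines were compared with limma 3.58.1 (R 4.3.3), using trend and robust moderation on values of log2(normalized reads + 1), for 11201 genes with a mean of at least 10. Benjamini-Hochberg adjustment covered all of these, with a threshold of 0.05. Fold changes are on that scale and understate changes of low genes. The fit was also run on simulated counts with far fewer changed genes than were called here, so that run does not cover a difference as wide as this one. Members and lists were chosen with earlier results of these data known. All 40 members are named. The rule gave values in every library, in each role list, for up to 4 members with the largest change and any called against the list's majority; in each related list it named up to 4 called genes with the largest change, up to 2 others with the highest level, and genes not tested. Gmnn, Dbf4, Pold3, Pole2, Pole3, Pole4, Rpa3, Mcm9, Tk2, Dguok, Shmt2, Impdh1, Cdkn1b and Cdc20 were named after their values were seen, as were further members' values per library. No 2 libraries were duplicates: the chi-square per degree of freedom was at least 2.48. Alternatives covered pseudocount, filter, scaling, variance model, replicate block, voom on recovered reads and each library left out.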

Additional observations from a re-analysis of the deposited data

How the results depend on the processing

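The alternatives kept most calls: 24 of the 40 replication genes were higher and 2 lower in the fit and all 16 alternatives, and 32 of 40 kept their call throughout. Between 24 and 28 genes were called higher in any alternative. The number called lower ranged from 2 (without GFP replicate 2, where Gins3 and Cdc7 were lost) to 5 over the fits that left out 1 library, and the median of the 40 was between 0.26 and 0.36 in those fits and 0.24 under TMM scaling. In the related lists, 10 genes were lower in the main analysis, 20 under TMM and 18 under upper-quartile scaling. With the replicate number as a block, 27 of the 40 were higher and 4 lower, with Mcm2 and Mcm3 gained (limma adjusted p = 0.031 and 0.012); correlations of same-numbered libraries were 0.0016, 0.114 and 0.0447, and GFP replicate 1 correlated more with NUR77 replicate 3 (0.0732) than with its own number. Genes near 0 changed sign without a call. Leaving out 1 library gave -0.059 to 0.078 for Cdt1, -0.119 to 0.003 for Rfc2, -0.069 to 0.086 for Rrm2, -0.083 to 0.022 for Cmpk1, -0.041 to 0.038 for Adss, -0.010 to 0.081 for Dnmt1, -0.005 to 0.021 for Rbbp4 and -0.148 to 0.034 for Etaa1. Under TMM, upper-quartile and median-of-ratios scaling, Adss was at -0.063, -0.051 and -0.046, Dnmt1 at -0.029, -0.018 and -0.012 and Rbbp4 at -0.066, -0.055 and -0.049. Gins4 was at -0.009 under TMM scaling and Cdt1 at 0.002 with voom on recovered reads, an alternative chosen after seeing the data. The cause of these changes was not tested. Tests of edgeR and DESeq2 on recovered reads were planned and not run; voom on those reads was run in their place. The least covered of the 40 genes, Gins3, had 1524 reads over the 6 libraries, and what depth adds to the genes not called was not tested.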
